A study of Mus musculus with 4 samples.

Results

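The genes described here encode the subunits of the mitochondrial respiratory chain and of ATP synthase that the cell nucleus contributes. They were chosen by name among the protein-coding rows of the deposited gene table that lie outside the mitochondrial genome. The names start with Ndufa, Ndufb, Ndufc, Ndufs or Ndufv and a digit (complex I), are Sdha, Sdhb, Sdhc or Sdhd (complex II), or start with Uqcr (complex III), Cox and a digit from 4 to 8 (complex IV) or Atp5 (complex V). The rule uses names only and no expression value, although it was set with earlier results of these data known. Of 54532 rows, 85 matched, under 84 names, because 2 rows carry the name Atp5o. A mean level of at least 1 FPKM (reads per kilobase of gene length, normalized to the size of the library) over the 4 libraries was needed for testing, and 78 of the 85 rows passed it, among 12166 genes in all.

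The libraries came from naive CD4+ T cells of the spleen of wild-type (WT) mice, grown for 3 days under Tfh conditions. T follicular helper (Tfh) cells are the CD4+ cells of the follicle that support B cells in making antibody. The control group (2 libraries) had no treatment and the DMF group (2 libraries) was grown with dimethyl fumarate, a cell-permeable ester of fumarate that activates the transcription factor Nrf2. The dose and the age and sex of the mice are not given in the labels, nor is the purity of the cells or whether the replicates are different mice or cultures. The spread that the p-values measure is thus that of these 4 samples only, and it may be technical. The reads worked out from the table came to between 15900118 and 17516953 per library.

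The respiratory chain sits in the inner mitochondrial membrane. Complex I takes electrons from NADH and complex II from succinate, complex III passes them from ubiquinol to cytochrome c, and complex IV hands them to oxygen. Complexes I, III and IV pump protons, and complex V, the ATP synthase, uses the proton gradient to make ATP. Most subunits are nuclear gene products imported into the organelle, while a small set of hydrophobic core subunits is made inside it from mitochondrial DNA. T cells raise the output of this system when they are activated, and fumarate is itself the product of the complex II reaction.

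Transcripts of most nuclear-encoded subunits were less abundant with DMF than without, but most of that distance came from 1 control. The DMF values were both under the 2 control values for 57 of the 78 tested members, against 26.8% of all tested genes, and both over them for 0 of the 78, against 26.4%. The median log2 difference, DMF minus control on the log2(FPKM + 1) scale, was -0.75 over the members and -0.01 over all tested genes. Control 2 held the highest level of the 4 libraries for 75 of the 78 members, against 44.2% of all tested genes. Being below both controls thus mostly meant being below control 1, which held for 58 of the 78, against 39.6% of all tested genes. Measured from control 1 alone, the members' median was -0.15, and measured from control 2 alone it was -1.37. The members took 1.57% of the reads in control 2 and 0.922%, 0.872% and 0.879% in control 1, DMF 1 and DMF 2. In bulk libraries such as these, fewer cells of a type and less RNA per cell cannot be told apart.

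No member passed the test that spans all genes. limma called 0 of the 78 members at a Benjamini-Hochberg adjusted p under 0.05, and 0% of the 12166 genes tested. At an unadjusted p under 0.05 limma found 1 member, Cox7a1, and 1150 genes in all. The limma adjusted p of Cox7a1, 0.503, was the lowest among the members. The same model on recovered reads with voom weights also called 0 genes, with 1 member and 1168 genes at an unadjusted p under 0.05. Without control 2, limma called 8 members, all lower in the DMF libraries, against 5.51% of all tested genes called lower, on the assumption that the lone control varies like the DMF libraries. Without control 1, on the same assumption, it called 75 members lower, against 33.4% of all tested genes.

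**Figure D1:**
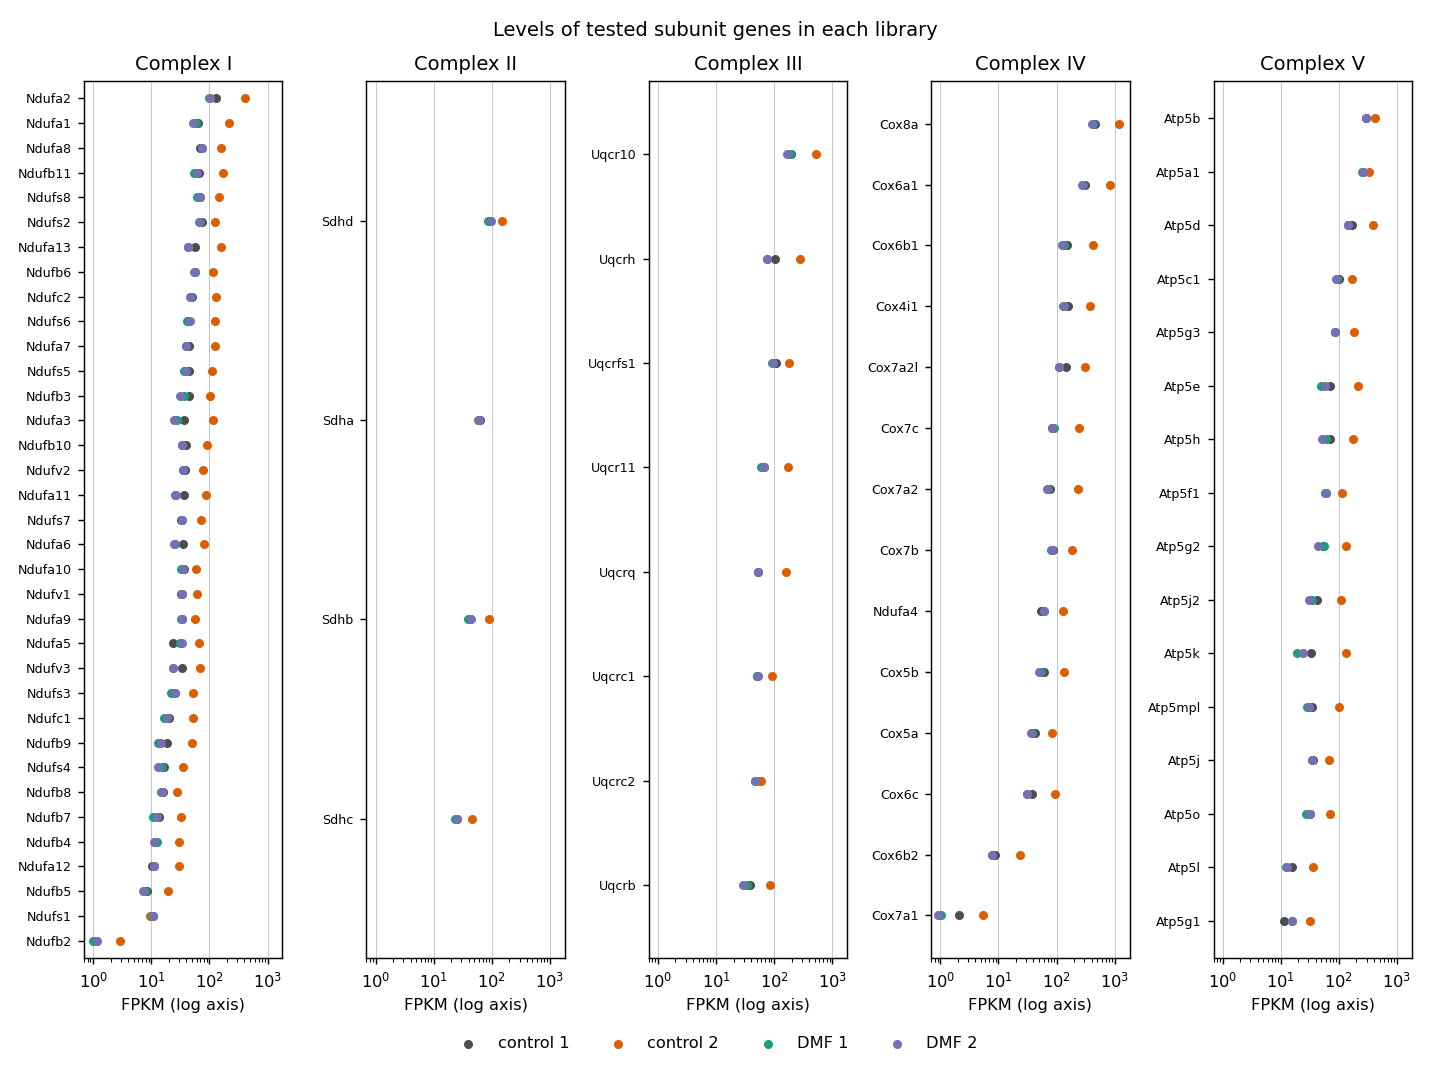
Level of each tested subunit gene in the 4 libraries, in FPKM on a log axis, 1 panel per complex and 1 point per library (Atp5s, which is no subunit, is left out). Control 2 stands to the right of the other 3 libraries for nearly every gene, with Ndufs1 and Sdha as the exceptions.

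The 3 marker genes of the system differed in how the libraries were ordered. Cox4i1, which encodes a subunit through which complex IV activity is regulated, lies at chr8:120668222-120674207 on the plus strand (GRCm38). It measured 159 FPKM in control 1, 382 in control 2, 128 in DMF 1 and 134 in DMF 2, or 270 ± 158 in the control and 131 ± 3.92 in the DMF group (SD, n = 2). Both DMF libraries were below both controls, and control 2 was well above the other 3, at 2.73 times their mean. Its log2 difference was -0.91 (SE 0.49, limma adjusted p = 0.561). Ndufs1, which encodes the iron-sulfur protein of complex I that carries electrons away from the NADH site, lies at chr1:63143596-63176833 on the minus strand. It measured 10.6, 9.63, 10.4 and 10.7 FPKM in control 1, control 2, DMF 1 and DMF 2, and the groups overlapped. Sdha, which encodes the flavoprotein that oxidizes succinate, lies at chr13:74322254-74350280 on the minus strand. It measured 61.9, 56.8, 61.3 and 59.8 FPKM in the same order, and these groups overlapped too. Ndufs1 and Sdha had log2 differences of 0.05 and 0.03 (limma adjusted p = 0.881 and 0.944), and control 2 was the lowest of the 4 libraries for these 2 members alone.

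Promoters of the subunit genes were read and are shown for 4 members that cover the range of values. A link between promoters and the order of the libraries was not tested. Of the 84 member names, 68 matched the RefSeq promoter table (GRCm38.p6), which gives 250 bases before and 50 bases after each start. Atp5k held the largest distance between control 2 and the other libraries, Cox8a the highest level, Ndufs7 lay slightly above control 1 in both DMF libraries, and Sdha was flat. Capitals mark 3 motifs known from promoters of respiratory genes, searched on both strands: GCGCATGCG of nuclear respiratory factor Nrf1 (a factor unrelated to Nrf2), CCGGAAG of the ETS family to which Gabpa belongs, and AAGATGGCG of Yy1. All 4 runs read 5′ to 3′ along the gene. They come from chr5:108434350-108434649 (minus strand) for Atp5k, chr19:7217567-7217866 (minus) for Cox8a, chr10:80249199-80249498 (plus) for Ndufs7 and chr13:74350191-74350490 (minus) for Sdha.
Atp5k: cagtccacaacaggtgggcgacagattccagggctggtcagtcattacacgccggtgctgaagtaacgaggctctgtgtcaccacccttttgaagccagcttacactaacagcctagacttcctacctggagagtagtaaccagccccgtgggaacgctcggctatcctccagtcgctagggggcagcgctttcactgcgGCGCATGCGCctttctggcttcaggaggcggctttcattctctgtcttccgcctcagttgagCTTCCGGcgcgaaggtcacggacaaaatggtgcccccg
Cox8a: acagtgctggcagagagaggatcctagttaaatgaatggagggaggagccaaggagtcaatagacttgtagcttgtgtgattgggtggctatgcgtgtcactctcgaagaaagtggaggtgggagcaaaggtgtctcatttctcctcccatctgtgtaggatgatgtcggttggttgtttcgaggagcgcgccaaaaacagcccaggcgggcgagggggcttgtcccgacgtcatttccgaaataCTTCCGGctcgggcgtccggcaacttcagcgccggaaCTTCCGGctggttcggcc
Ndufs7: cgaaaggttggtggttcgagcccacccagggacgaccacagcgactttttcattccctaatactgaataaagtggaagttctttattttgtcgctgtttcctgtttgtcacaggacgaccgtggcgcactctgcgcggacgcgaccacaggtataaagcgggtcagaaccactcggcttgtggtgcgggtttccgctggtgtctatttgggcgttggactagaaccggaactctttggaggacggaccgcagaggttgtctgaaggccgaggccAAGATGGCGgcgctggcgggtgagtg
Sdha: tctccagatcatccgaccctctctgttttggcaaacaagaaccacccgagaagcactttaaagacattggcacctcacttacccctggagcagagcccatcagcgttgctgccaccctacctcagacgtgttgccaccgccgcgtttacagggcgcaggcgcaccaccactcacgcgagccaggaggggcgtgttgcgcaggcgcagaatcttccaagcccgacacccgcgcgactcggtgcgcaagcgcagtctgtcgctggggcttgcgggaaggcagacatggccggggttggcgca
In Atp5k the first capital run holds the Nrf1 letters on both strands in overlap, starting 50 bases before the start site, and the second is an ETS match on the reverse strand. Cox8a holds 2 ETS matches on the reverse strand, Ndufs7 holds 1 Yy1 match 24 bases past the start, and Sdha holds none of the 3.

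Over the tested members with a promoter, 26 of 66 (39.4%) held at least 1 of the 3 motifs, against 29.1% of 8440 tested genes and 12.7% of 27025 genes of the table. The Nrf1 letters stood in 12.1% of the members and 4.55% of the tested genes, the Yy1 letters in 10.6% and 4.15%, and the ETS letters in 24.2% and 22.7%. These shares are not particular to the members. In 68 genes of the mitochondrial ribosome they were 10.3% for Nrf1, 11.8% for Yy1 and 36.8% for ETS. The members with a motif had a median distance of DMF from control 1 of -0.14, and the 40 without one had -0.12. Their medians for control 2 minus the mean of the other libraries were 1.37 and 1.27. So the subunit genes with and without these letters lay close together on both measures.

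Complex I is the largest of the complexes, with 35 tested members. Its median log2 difference was -0.74, and 25 of the 35 had both DMF values under both control values, against 26.8% of all tested genes. The 7 nuclear genes of its catalytic core, which carry the electron path from NADH to ubiquinone, had a median of -0.52 with 3 of 7 below both controls. The 28 accessory subunits, which surround and steady the core, had a median of -0.82 with 22 of 28 below both controls. This order was kept against control 1 alone, where the medians were -0.08 and -0.20. The core genes also have longer coding sequences as a group. With a trend on gene length removed from each library, the medians were -0.27 for the core and -0.56 for the accessory genes. The part of length in this order was not tested.

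Ndufa2, an accessory subunit of the NADH-oxidizing module, had the highest mean level of complex I. It measured 130, 409, 99.9 and 102 FPKM in control 1, control 2, DMF 1 and DMF 2. The 2 DMF libraries nearly coincided, below control 1 and far below control 2. Ndufa3, an accessory subunit of the membrane arm, had the largest negative difference of complex I (-1.28, SE 0.58, limma adjusted p = 0.551), with 36.9, 116, 27.7 and 25.05 FPKM. Ndufv3, a small accessory partner of the NADH-binding subunits, measured 33.2, 68.4, 23.6 and 23.9 FPKM. Ndufa6, of the LYR motif family that docks the acyl carrier protein, measured 35.0, 80.6, 25.9 and 25.04 FPKM. In each of these 3 the DMF values sat close together beneath control 1. Ndufa11, a membrane-arm subunit, measured 36.4, 88.4, 25.9 and 27.0 FPKM. Ndufb9, the other LYR motif subunit of the complex, measured 18.7, 49.9, 12.9 and 14.6 FPKM. Both repeat the same order of libraries, and limma gave adjusted p between 0.536 and 0.561 for the 6 genes of this paragraph.

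Not every complex I gene lay under control 1. Both DMF libraries were above it for 5 of the 35 (Ndufa5, Ndufa8, Ndufa12, Ndufs7 and Ndufv1), and these 5 are named from their values. Ndufa5, an accessory subunit of the arm that faces the matrix, measured 24.1, 66.8, 30.8 and 33.8 FPKM. The DMF libraries were thus 1.34 times control 1 but less than control 2. Ndufv1, which binds NADH and the flavin cofactor, measured 32.4, 60.3, 33.2 and 34.1 FPKM, and Ndufs7, which holds the last iron-sulfur cluster before ubiquinone, measured 32.5, 72.5, 33.6 and 34.3. Both are core genes with DMF values barely above control 1.

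Complex II, the only complex with no subunit from mitochondrial DNA and the source of the fumarate made in the citric acid cycle, stood nearest to no difference. Its 4 members had a median of -0.40 against both controls and -0.02 against control 1, and 0 of the 4 lay below both controls. Sdhb, the iron-sulfur protein, measured 41.4, 90.5, 39.5 and 44.2 FPKM. Sdhc and Sdhd, which anchor the enzyme in the membrane, measured 25.1, 44.9, 23.7 and 25.2, and 91.9, 149, 87.7 and 96.1. In all 3 the control 1 value fell between the 2 DMF values and only control 2 was apart. The log2 differences of Sdhb, Sdhc and Sdhd were -0.54, -0.45 and -0.35 (limma adjusted p = 0.579, 0.573 and 0.608). Of the 73 tested members of complexes I, III, IV and V, 57 were below both controls, against 26.8% of all tested genes. No test of the difference between complex II and the others was run.

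In complex III, 7 of the 8 members had both DMF values under both control values, against 26.8% of all tested genes. The median of complex III was -0.79 (-0.17 against control 1). Uqcr10, one of its smallest subunits and the most abundant of the 8, measured 193, 519, 191 and 166 FPKM. Uqcrh, the acidic hinge protein beside cytochrome c1, measured 105, 281, 76.8 and 76.4 FPKM, a log2 difference of -1.16 (SE 0.52, limma adjusted p = 0.551). Its DMF values agreed closely and were 0.728 times control 1. Uqcrb, a small subunit near the ubiquinone site, measured 38.4, 83.6, 34.4 and 29.2 FPKM. Uqcrfs1, the Rieske iron-sulfur protein that takes an electron from ubiquinol, measured 109, 178, 90.3 and 97.1. Uqcrc2, a core protein on the matrix side, was the member of complex III whose controls agreed best, at 57.5 and 60.2 FPKM against 46.4 and 46.2 in the DMF libraries. Here the gap between groups was wider than the gap inside each group, and the log2 difference was -0.34 (SE 0.18, limma adjusted p = 0.561). Its partner Uqcrc1 measured 49.8, 90.02, 49.97 and 51.8 FPKM and was the 1 member of complex III above control 1 in both DMF libraries.

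Complex IV had a median of -0.86 (-0.19 against control 1), the most negative of the complexes here. That did not hold under quantile normalization, where complex I was at -0.53 and complex IV at -0.41. Of the 14 tested members of complex IV, 12 lay below both controls, against 26.8% of all tested genes. Ndufa4 is counted here, because it was reassigned from complex I to complex IV. Cox8a, the ubiquitous form of the smallest membrane subunit, was the most abundant member of all, with 465, 1171, 417 and 403 FPKM. Cox7a2l, a relative of Cox7a that joins complexes III and IV into supercomplexes, measured 147, 315, 109 and 109 FPKM. Cox6c, a small membrane subunit, measured 38.4, 93.5, 31.02 and 31.3. These 3 share the order of control 2 above control 1 above DMF, with log2 differences of -0.85, -0.97 and -0.92 (limma adjusted p = 0.561, 0.549 and 0.561). Ndufa4 measured 54.3, 132, 60.7 and 60.9 FPKM. It was the member of complex IV with both DMF libraries above control 1, by a log2 difference of 0.16.

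Complex IV is also where tissue-restricted isoforms occur. The ubiquitous Cox6a1, Cox6b1, Cox7a2 and Cox7b measured 314, 153, 76.3 and 87.3 FPKM in control 1. In control 2 the same genes measured 836, 425, 236 and 186 FPKM, and in DMF 1 286, 132, 71.2 and 80.7. In DMF 2 they measured 275, 125, 69.0 and 84.5 FPKM, so in each gene control 2 was highest, control 1 next and both DMF libraries lowest. Of the tissue-restricted forms, Cox7a1 of heart and muscle measured 2.11, 5.37, 1.02 and 0.901 FPKM and Cox6b2, best known from testis, 8.86, 23.5, 7.79 and 7.78. Cox7a1, with 20, 40, 10 and 9 reads, had a log2 difference of -1.18 (SE 0.40), with DMF at 0.456 times control 1, the lowest such ratio among the tested members. Both forms followed the ubiquitous genes in direction.

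The remaining 7 rows were under the level set for testing. Cox6a2, the muscle form of Cox6a, had 3, 2, 29 and 14 reads in control 1, control 2, DMF 1 and DMF 2, or 0.249, 0.211, 2.33 and 1.10 FPKM. Its DMF reads were the more numerous in both libraries, opposite to the tested isoforms, at a level too low to test. Cox4i2, the hypoxia- and lung-associated form of Cox4, had 7, 0, 5 and 22 reads. Ndufa4l2 had 0, 0, 2 and 3 reads and Cox8b 0, 0, 1 and 0. Cox7b2, Cox8c and the second Atp5o row are listed at 0 in all 4 libraries. The table also lists 0 for Sco2, Pet117 and Mrpl53, genes of mitochondrial assembly and translation, so a listed 0 need not be a measured absence. The second Atp5o row overlaps the expressed Atp5o over 1769 bases of the same strand, and how the counting treated shared reads is not given.

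Of the 16 tested members of the ATP synthase, complex V, 13 lay below both controls, against 26.8% of all tested genes. The complex had a median of -0.73 (-0.14 against control 1). Its F1 part, which makes ATP, includes the catalytic Atp5b and its partner Atp5a1. Atp5b, the most abundant member of the complex, measured 295, 422, 288 and 293 FPKM. Atp5a1 measured 256, 332, 250 and 255. Both showed a small distance between control 2 and the rest, with DMF at 0.984 and 0.985 times control 1, and log2 differences of -0.28 and -0.21 (limma adjusted p = 0.666 and 0.714). The 5 genes of F1 had a median of -0.51 and the 11 other genes of the complex -0.78, while against control 1 the medians were -0.15 and -0.13.

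Small subunits of the complex stood furthest apart between libraries. Atp5k, subunit e, which helps ATP synthases pair into dimers, measured 32.9, 134, 18.8 and 24.3 FPKM. Control 2 was 5.28 times the mean of the other 3 libraries, the largest such ratio of the 78 members, and the log2 difference was -1.59 (SE 0.70, limma adjusted p = 0.549). Atp5e, the epsilon subunit of F1, measured 71.0, 212, 49.2 and 57.5 FPKM. Atp5j2, subunit f, measured 41.7, 108, 34.5 and 30.4, and Atp5h, subunit d of the stalk, 71.5, 172, 60.2 and 52.0. All had DMF beneath control 1 and control 2 far above it.

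The ring of c subunits, which turns as protons pass, is encoded by 3 genes for the same mature protein. Atp5g1, the least abundant of them, measured 11.5, 32.3, 15.4 and 15.5 FPKM. Atp5g2 measured 53.7, 134, 54.8 and 44.2 FPKM and Atp5g3 85.0, 185, 84.1 and 85.6. Atp5g1 was the 1 subunit of complex V with both DMF libraries above control 1, at 1.35 times its level, while the other 2 genes had control 1 between the DMF values. Reads from the shared part may be split among the 3 genes, so these levels are uncertain. Atp5s, a coupling factor that is no fixed subunit, measured 2.02, 2.82, 3.14 and 1.76 FPKM with no separation of groups.

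**Figure D2:**
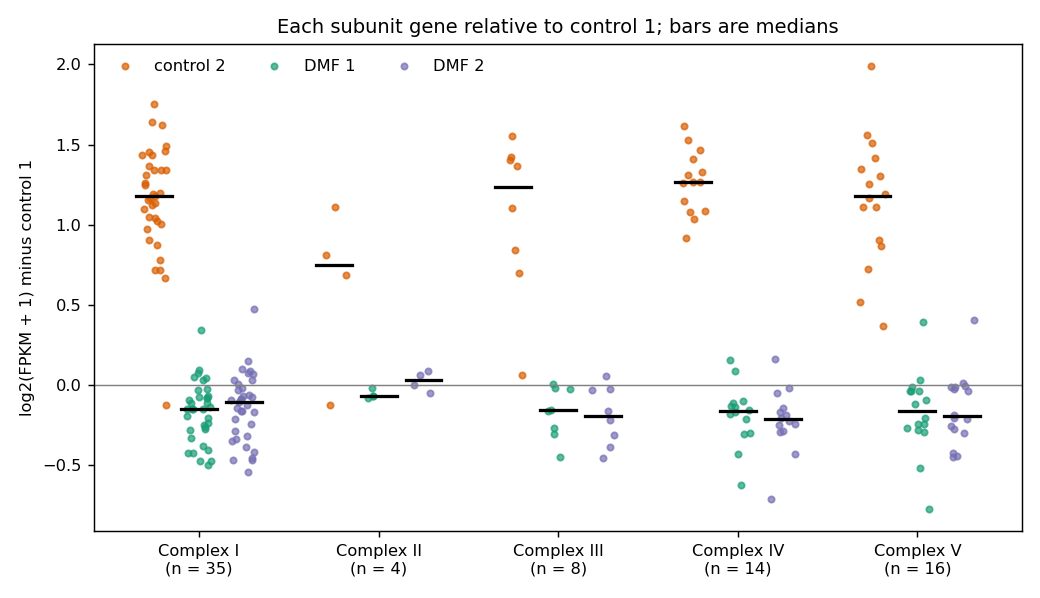
Distance of control 2, DMF 1 and DMF 2 from control 1 for each tested subunit gene, as the difference in log2(FPKM + 1), by complex, with 1 point per gene and bars at the medians. Control 2 has medians of 1.18, 0.75, 1.23, 1.26 and 1.18 in complexes I to V, while the DMF points lie around and mostly just below 0.

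Set against control 1 alone, the DMF libraries differed little. Both lay below control 1 for 58 of the 78 members (background 39.6%) and above it for 8 (background 43.4%), namely Ndufa5, Ndufa8, Ndufa12, Ndufs7, Ndufv1, Uqcrc1, Ndufa4 and Atp5g1. The 8 members that limma called without control 2 were Cox7a2l (log2 difference -0.43, adjusted p = 0.0259), Uqcrh (-0.45, adjusted p = 0.0259), Ndufa2, Ndufv3, Ndufa13, Ndufa6, Ndufa11 and Uqcrc2 (-0.31, adjusted p = 0.0435). Over all the alternatives the adjusted p of Cox7a2l and of Uqcrh ran from 0.00134 to 1.00 and that of Uqcrc2 from 0.00706 to 1.00. Of these 8, 5 belong to complex I, 2 to complex III and 1 to complex IV. Ndufa13, an accessory subunit also known as a cell death regulator, measured 56.7, 157, 42.1 and 43.1 FPKM. Each of the 8 had a DMF level between 0.715 and 0.805 times control 1. Once a gene length trend was removed, the share of members called without control 2 was below that of all tested genes.

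**Figure D3:**
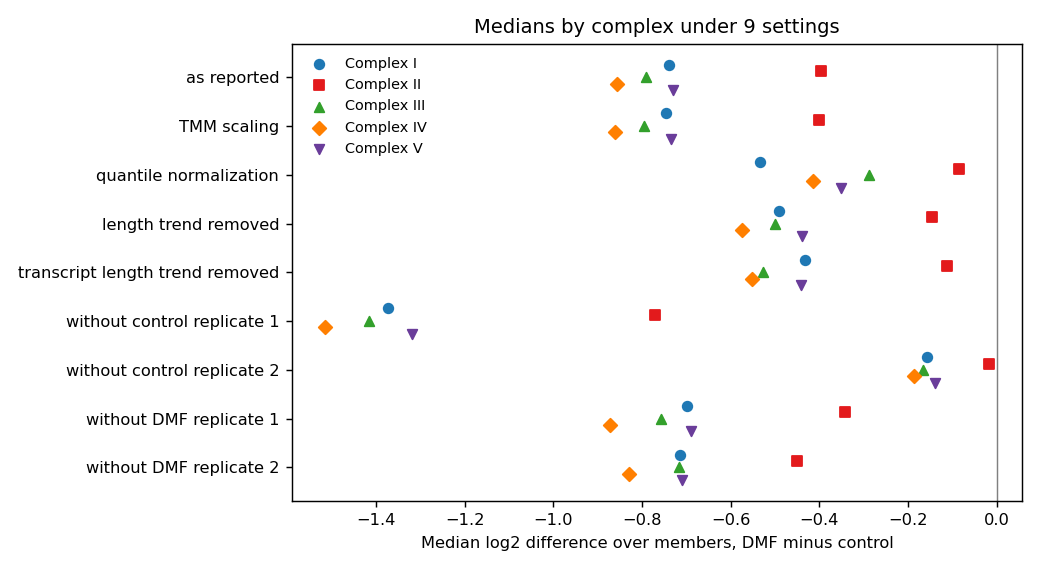
Median log2 difference over the tested members of each complex, DMF minus control, under 9 settings of the analysis. In these 9 settings all medians are below 0, they shrink when a length trend is removed or quantile normalization is used, and they lie nearest to 0 without control 2 (-0.16, -0.02, -0.17, -0.19 and -0.14 for complexes I to V).

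Control 2 differs from the other libraries along gene length, so the members, most of which are short genes, were set against it. With a smooth trend on gene length removed from each library, the members' median was -0.47 against 0.02 over all genes, and 45 of 78 lay below both controls (background 24.8%). Control 2 was still the highest library for 75 of the 78. The complex medians became -0.49, -0.15, -0.50, -0.58 and -0.44 for complexes I to V, with complexes I, III and V close together. In that order, 22 of 35, 0 of 4, 3 of 8, 11 of 14 and 9 of 16 members then lay below both controls. Removing a trend on transcript length gave a median of -0.45 with 42 of 78 below both controls (background 25.7%). Quantile normalization gave -0.41 with 43 of 78 (background 24.1%). Against control 1 alone, 47, 43 and 44 of the 78 lay below it with gene length, transcript length and quantile adjustment. The backgrounds were 36.3%, 36% and 36.2%. The order of the complexes changed with these settings. Under quantile normalization their medians were -0.53, -0.09, -0.29, -0.41 and -0.35, so that complex I was the most negative, and with the transcript length trend removed complexes I and V were at -0.43 and -0.44.

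The distance of control 2 also went with transcript and coding length. Across the 78 members, control 2 minus the mean of the other 3 libraries had a Pearson r of -0.60 with log2 gene length, -0.71 with log2 transcript length and -0.77 with log2 coding length. Over 10229 tested genes with a coding sequence, Pearson r was -0.42, -0.48 and -0.50 for the same lengths. Spearman's rho was -0.61, -0.68 and -0.60 over those genes, against -0.60, -0.72 and -0.73 over the members. Whether coding length stood out over all genes thus depended on the measure. All these genes share the same 4 libraries, so the values describe those libraries and carry no p. The 48 members with coding sequences of up to 500 nucleotides had a median distance of 1.46, the next 19, up to 1000, had 1.10, and the 11 longer ones 0.74. All tested genes had medians of 0.78 and 0.46 in the 2 shorter classes, below the members' values, though lengths inside a class were not matched. The longest class has no upper bound and is not compared. Ndufs1 and Sdha, the 2 members lowest in control 2, have the longest coding sequences of the 78, 2181 and 1992 nucleotides. Against control 1 the members' DMF medians of the 3 classes were -0.19, -0.12 and -0.03, and all tested genes of the 2 shorter classes had -0.05 and 0.00092. Whether length itself or another property of control 2 set these values was not tested.

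**Figure D4:**
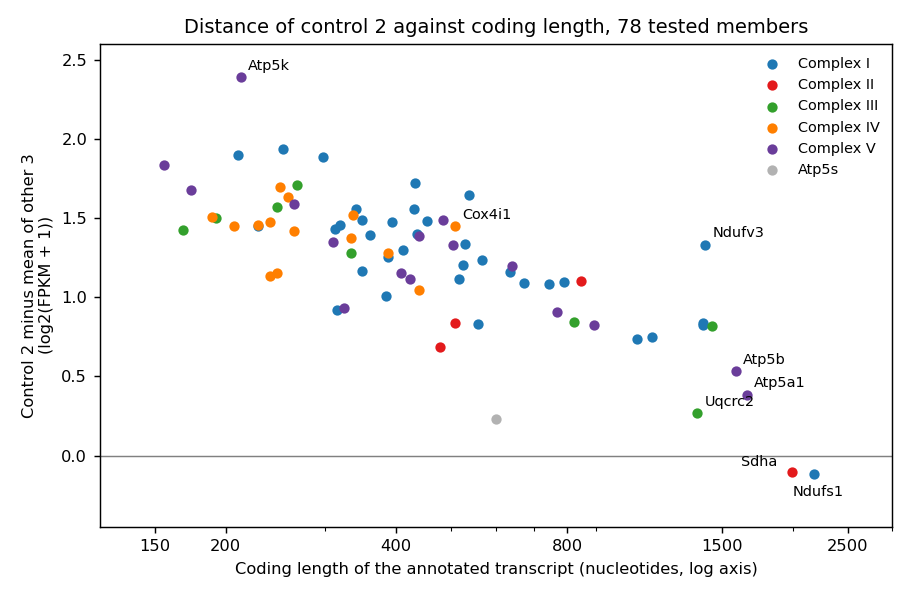
Control 2 minus the mean of the other 3 libraries on the log2(FPKM + 1) scale for the 78 tested members, against coding length on a log axis, coloured by complex. The distance falls from 2.39 for Atp5k to just below 0 for Sdha and Ndufs1, and Ndufv3 lies above other genes of its length. Coding length is that of 1 annotated transcript per gene, and other isoforms were not considered.

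Assembly factors build the complexes without staying in them, and their medians lay nearer to 0 than those of most subunit groups. Of the 46 tested assembly factors, limma called none at an adjusted p under 0.05. The complex I factors (14 tested) had a median of -0.10 and of 0.14 against control 1, and those of complex IV (19 tested) -0.38 and 0.04. The factors of complexes II, III and V had medians of -0.42, -0.25 and -0.10. Sco1, a copper chaperone for complex IV, had the smallest p among them, with 11.07, 11.01, 6.88 and 6.29 FPKM. Its controls agreed and both DMF libraries were lower, with a log2 difference of -0.67 (limma adjusted p = 0.383). Pet100, a further complex IV factor, measured 5.87, 14.5, 3.88 and 3.38 FPKM, and Ndufaf3, a complex I factor, 7.34, 14.0, 4.64 and 5.43. In those 2 genes control 2 again stood above the rest.

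Of 12 tested regulators of respiratory genes, 9 had both DMF values over both control values (26.4% of all tested genes did) and 2 had them under (26.8%), with a median of 0.21 (0.11 against control 1), and limma called 0. Ppargc1b, a coactivator of mitochondrial biogenesis, measured 0.580, 0.414, 1.602 and 1.799 FPKM, a log2 difference of 0.85 (limma adjusted p = 0.408). Pprc1, a relative of it that responds to growth signals, measured 16.7, 11.4, 21.6 and 21.5. Tfb2m, a mitochondrial transcription factor, measured 11.1, 9.88, 14.5 and 13.1. All had DMF above both controls, on the opposite side from most subunits. The regulators are longer genes, with a median gene length of 5186 bases against 1631 for the members. With the gene length trend removed their median was 0.18, and 8 of 12 were above both controls (background 29.5%). Nrf1, whose motif is shown above, measured 10.39, 11.97, 10.06 and 10.12 FPKM, Gabpa 11.2, 8.98, 13.2 and 12.4, and Ppargc1a was listed at 0 in all libraries.

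Markers of other cell types differed between the same groups. The 5 B cell markers summed to 7.98 and 12.3 FPKM in the controls and 22.3 and 21.2 in the DMF libraries. All 4 tested were above both controls (background 26.4%). The CD8 T and NK markers summed to 11.9 and 20.2 FPKM against 2.55 and 2.51. All 3 tested were below both controls (background 26.8%), and Ncr1 and Klrb1c were listed at 0. The 5 myeloid markers summed to 3.55 and 6.10 FPKM against 3.18 and 1.12. The T cell markers summed to 1011 and 1356 FPKM against 978 and 989, and 4 of the 5 were below both controls (background 26.8%). Against control 1 their median log2 difference was -0.31. With quantile normalization the T cell markers' median against both controls was 0.11, and 2 of the 5 were below both (background 24.1%). The part of these cell types in the subunit values was not tested. Of the members, 24 overlap another tested gene on the genome. Examples are Cox6c with Vps13b and Atp5d with Cbarp on opposite strands, and Ndufa13 with Yjefn3 over 8379 bases of the same strand. It is not given whether the counting used strand or how it treated reads shared with overlapping genes or processed pseudogenes.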

How the data were processed

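RNA-seq libraries labelled control (2) and DMF (2) were used. Per the file headers, the authors deposited FPKM values per gene in 1 table that also lists gene length and position. The submitters' processing notes name edgeR, without a role or version, and the build mm8, but 98.33% of the 54495 gene identifiers found in GENCODE M21 have its GRCm38 coordinates, so positions are given as GRCm38. No source used here gives the aligner or the counter. Reads were recovered, since FPKM times length is a whole multiple of a library's step for 100% of values (tolerance 0.01). They sum to 17171199, 15900118, 17134385 and 17516953 in control 1, control 2, DMF 1 and DMF 2, while the FPKM imply library sizes of 17725674, 13929627, 18302380 and 18672223.

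The test was limma 3.58.1 (lmFit, eBayes with trend) in R 4.3.3, two-sided and without covariates, comparing log2(FPKM + 1) of DMF with control in genes whose mean FPKM was 1 or more, with Benjamini-Hochberg adjustment over all of them and a threshold of 0.05. A log2 difference on this scale understates that of low genes. Both members and gene lists were chosen with earlier results of these data known. Genes named are Cox4i1, Ndufs1, Sdha, all of complex II, the isoform families, and per complex the highest mean, the 4 smallest p and the largest difference each way; in the other lists up to 3 with the smallest p. Other genes named were chosen after their values were seen.

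Alternatives were pseudocounts of 0.1 and 0.5, no filter, a mean FPKM of at least 5, TMM scaling (own code, with trims of 30% on ratios and 5% on levels), quantile normalization, voom on the reads, removal of a gene length trend (loess, span 0.3), a replicate block and each library left out. Removal of a transcript length trend (1 GENCODE transcript per gene), and of the gene length trend without each control, were chosen after seeing the data. The scripts were tested on simulated data. The replicates differed by more than counting error (chi-square per degree of freedom 147 for the controls, 3.61 for the DMF libraries) and were kept as separate samples.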

Additional observations from a re-analysis of the deposited data

How the results depend on the processing

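The members' median log2 difference was below 0 under every alternative run. It ran from -1.37 to -0.15 with each library left out, and was -0.0829 without control 2 with the gene length trend removed. In that setting the median of complex II turned to 0.03, and those of complexes I, III, IV and V were -0.08, -0.10, -0.11 and -0.07. Leaving out each library in turn moved the members called from 0 to 75 and the genes called from 6 to 7420. With the gene length trend removed, limma called 74 members and 6177 genes without control 1, and 5 members and 925 genes without control 2. Without control 2 the share of members called was then below that of all tested genes. With the transcript length trend removed and all libraries kept, limma called 2 genes and 0 members. Ndufs1, at 0.05 with all libraries, was at -0.27 with the gene length trend removed and without control 1 (limma adjusted p = 0.0472, over its alternatives 0.0472 to 1.00). The cause was not tested.

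Same-numbered libraries did not deviate together (correlation -0.02), and the labels do not pair them. With the replicate number as a block, limma called 552 genes and 3 members (Atp5k, Cox7a1 and Ndufa3), a share of the members below that of all tested genes. Depth limits the rows under the filter and also Cox7a1, which rests on 20, 40, 10 and 9 reads in control 1, control 2, DMF 1 and DMF 2; the next lowest member, Atp5s, has at least 67. Since 2 libraries stand against 2 and the controls lie far apart (SD of their log2 difference 0.74, against 0.32 for the DMF libraries), 0 calls do not show that levels were equal.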

Other observations

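The 13 subunits made from mitochondrial DNA had a median log2 difference of -0.60 and of -0.24 against control 1. Both DMF values were under both controls for 10 of 13 (background 26.8%), and for 5 of 13 with quantile normalization (background 24.1%). Among them mt-Atp8 rests on 4, 9, 4 and 4 reads in control 1, control 2, DMF 1 and DMF 2. mt-Co1, the catalytic subunit of complex IV, measured 3544, 3652, 3022 and 2879.8 FPKM in control 1, control 2, DMF 1 and DMF 2, so its controls nearly agreed. mt-Co2, which takes electrons from cytochrome c, measured 34.2, 84.7, 24.4 and 25.1 FPKM. mt-Nd6, encoded on the other strand, measured 549, 1338, 431 and 384. mt-Nd5 was lowest in control 2, at 567 FPKM, against 703, 624 and 599 in control 1, DMF 1 and DMF 2. limma called none of the 13. In control 1, mt-Nd3, mt-Nd4l, mt-Co2, mt-Co3, mt-Atp6 and mt-Atp8 ranged from 1.11 to 56.4 FPKM. The other mitochondrial subunits ranged from 549 to 3544 FPKM in that library. The cause of this gap was not tested. It is not given how the counting treated reads that match more than 1 place. Levels are therefore not compared between these genes, and the median and counts above weigh all of them equally.

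Proteins of the mitochondrial ribosome, which translate those 13 transcripts, were highest in control 2 for 76 of 77 tested genes (background 44.2%). Against control 1 their median was 0.05. Both DMF libraries were below it for 21 (27.3%, background 39.6%) and above it for 37 (48.1%, near the background of 43.4%). The cytosolic ribosomal proteins, a further set of short and abundant transcripts, had 66 of 76 below control 1 (background 39.6%) and a median of -0.20. Cytochrome c itself (Cycs), the carrier between complexes III and IV, measured 38.6, 73.4, 38.8 and 39.1 FPKM, and Cyc1, the cytochrome c1 of complex III, 60.6, 106, 58.6 and 60.4.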
